A study of Mus musculus with 18 samples.

Results

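Of the 679 sequences in the deposited table of mitochondrial tRNA-arginine (mt-TR) fragments, 15 began at nt 1 of the mature tRNA and ended at least 19 nt before its mature 3′ end. These 15 held 77234 of 121943 reads, or 63.3% of the table. They were selected by start and end alone, and the limit of 19 nt was placed at the most abundant end in these libraries, called the site here. How many reads each end held is therefore given as a description and not as a test. An end is named by the number of bases between it and the mature 3′ end, so that end 19 lies at the site and end 31 lies farthest from it among the 13 ends that could be listed in all mtDNA types. Ends 32 and 33 completed the 15, and reads shorter than 40 nt were not analysed here.

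The reads came from small RNA of the livers of healthy adult female mice, sequenced to compare mt-TR fragments between mitochondrial and nuclear genotypes. CC, HH and FF were wild-type mice of the strains C57BL/6J, C3H/HeN and FVB/NJ. HC, CH and CF were mitochondrial-nuclear exchange (MNX) mice, lines made by pronuclear transfer, in which the first letter gives the strain of the nuclear genome and the second that of the mitochondrial DNA (mtDNA), abbreviated as in the wild types. The labels list no treatment for any group. Each of the 6 groups had 3 libraries, and each mtDNA type had 6 libraries, 3 of wild-type and 3 of MNX mice. RNA of several preparations was pooled and then pretreated to remove blocked ends and base methylation before library construction. The labels do not say how many animals stand behind a library, and the spread between libraries may be technical. Libraries held 3578 to 23805 reads in wild type and 189 to 7903 in MNX mice, and 4 libraries held fewer than 1000. The table held only mt-TR reads, so the tissue could not be checked against liver markers, and in bulk tissue fewer cells of a type and less RNA per cell cannot be told apart.

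Transfer RNAs fold into an acceptor stem and the D, anticodon and T arms, and nucleases that cut in a loop release fragments known as tRNA-derived fragments (tRF). Those that keep the 5′ end of the tRNA are called 5′ tRFs. Mitochondrial tRNAs are transcribed as part of long precursors, are cut out at both ends, and receive a CCA tail that the genome does not encode.

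The fragments derive from mt-Tr (ENSMUSG00000064361.1), which has 1 exon of 68 nt on the plus strand, at chrM:9808-9875 of GRCm38 (mm10). The longest selected fragment ends at position 9859 and spans nt 1 to 52 with mtDNA C, 53 with F and 54 with H. It is shown for each type because the types differ within it, in the runs of T and A that are written in capitals:
mtDNA C, nt 1 to the site: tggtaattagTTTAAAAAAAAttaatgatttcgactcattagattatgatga
mtDNA F, nt 1 to the site: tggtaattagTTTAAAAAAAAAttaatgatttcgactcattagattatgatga
mtDNA H, nt 1 to the site: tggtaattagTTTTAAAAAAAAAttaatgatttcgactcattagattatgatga

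All bases after the runs are the same in the 3 types, so the ends compared below lie in identical sequence. The other ends with the most reads are shown for mtDNA C, with the last 4 bases in capitals:
mtDNA C, end 22: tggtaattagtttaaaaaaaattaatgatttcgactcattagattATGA
mtDNA C, end 26: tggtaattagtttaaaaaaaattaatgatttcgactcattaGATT
mtDNA C, end 28: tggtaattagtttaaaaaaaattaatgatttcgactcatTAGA
mtDNA C, end 31: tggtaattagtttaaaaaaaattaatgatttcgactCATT

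What follows end 28 is shown by the 3′ part of mature mt-TR of mtDNA C, in which capitals mark the stretch between end 28 and the site:
mtDNA C, nt 37 to 71: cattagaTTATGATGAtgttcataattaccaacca

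By the pairing of complementary stretches, end 31 lies at the last base of the anticodon stem, ends 27 to 30 in the variable loop, ends 22 to 26 in the 5′ strand of the T stem, and ends 19 to 21 in the T loop. None of the selected fragments could end in the anticodon loop, which lies beyond the 40 nt limit of the reads.

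Reads were concentrated at few ends. End 19 held 42477 reads over all libraries and end 28, in the variable loop, held 21054. End 26, at the first base of the T stem, held 4269, end 22, at the last paired base of that strand, held 2417, and end 31 held 1626. With each library weighted equally, end 19 made up 43.2% of the reads at ends 19 to 31, end 28 made up 26.7% and end 26 made up 7.38%. Ends 31 and 30 followed with 4.06% and 3.73%, and ends 22, 27, 29 and 21 with 2.31%, 2.31%, 2.28% and 2.02%. The other 4 ends of the 13 lay below 2% each. End 32 could be listed in F and H only and held 78 reads, and end 33 could be listed in H only and held 62.

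Read numbers dropped on either side of the site. End 18, just outside the limit, made up 0.623% ± 0.387 of all table reads with mtDNA C, 0.852% ± 0.335 with F and 0.665% ± 0.535 with H (mean ± SD of 6 libraries). End 19, just inside it, made up 26.9% ± 13.95, 32.4% ± 19.2 and 9.72% ± 7.05, and end 20 made up 0.409% ± 0.0697, 0.765% ± 0.247 and 0.622% ± 0.399. Past the site, 17 fragments from nt 1 held 4586 reads.

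Ends 19 and 28 shared a sequence feature with ends 22 and 25 that the selection did not use, and this grouping was made after the values were seen. Ends 19, 22, 25 and 28 were the 4 of the 13 common ends at which the last base is A and the next is T, and they are spaced 3 bases apart. Together they held 74.1% ± 20.9 of the reads at ends 19 to 31 (SD over 18 libraries, range 30.5% to 91.0%), nearly all of it at ends 19 and 28. With each library weighted equally, ends 22 and 25, with 2.31% and 1.93%, held less than ends 26, 31 and 30, which lack this feature. By summed reads, ends 22 and 25 held 2417 and 1159, less than end 26 with 4269, while ends 31 and 30 held 1626 and 1037. Ends 26 and 31, at which T is followed by A, held 11.4% ± 8.0, and each remaining kind of step held less than that on average. End 33, seen in H alone, also lies between A and T. It held 62 reads in H libraries, where its neighbour end 32 held 22.

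The order of the ends was alike in most libraries. End 19 led in 14 of the 18, and in these 14 end 28 came next. End 28 led in HC replicate 2 and CH replicate 3, with end 19 next. End 26 led in HC replicate 1 and HH replicate 1, whose reads were spread more evenly over the ends. The A and T ends made up 30.5% of the reads at ends 19 to 31 in HC replicate 1, 31.8% in HH replicate 1 and 40% in CF replicate 3, against 54.1% to 91.0% in the other 15 libraries. These 3 libraries also had high shares of table reads ending in the mature CCA, at 52.9%, 74.3% and 63.0%. CCA-ended reads reached 63.8% in CH replicate 2 and 58.6% in CH replicate 1, in which the A and T ends made up 87.0% and 72.5%. The part of these values in the results below was not tested, and calls that change without HC replicate 1 or HH replicate 1 are given beside the result.

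The share of table reads held by the selected fragments was first compared between groups. In CC it was 52.5%, 62.8% and 83.7% in the 3 libraries, and in HC it was 22.4%, 68.2% and 53.7%. FF libraries had 80.2%, 76.7% and 69.9%, and CF libraries had 29.4%, 67.3% and 19.6%. HH libraries had 9.24%, 41.9% and 21.02%, and CH libraries had 27.7%, 20.3% and 34.4%. At these depths the 95% Wilson interval ran from 83.2% to 84.2% in CC replicate 3 and from 14.5% to 25.8% in CF replicate 3. All CC and FF libraries lay above all HH and CH libraries, while HC and CF libraries ranged over both.

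By mtDNA type, the share was 57.2% ± 20.5 with mtDNA C, 57.2% ± 25.9 with F and 25.8% ± 11.5 with H (mean ± SD of 6 libraries). C exceeded H by 31.4 percentage points, with 5 of 6 C libraries above the mean of H, and the difference did not pass after adjustment (p = 0.0130 and adjusted p = 0.0974 by two-sided exact permutation). It passed without HC replicate 1, at 38.4 points (exact permutation test, adjusted p = 0.0325). F also exceeded H by 31.4 points, with 5 of 6 F libraries above the mean of H (p = 0.0346 and adjusted p = 0.130 by exact permutation). These comparisons share the H libraries. CCA-ended reads made up 16.7% ± 18.1, 22.7% ± 25.9 and 52.9% ± 17.3 of the table in C, F and H libraries, and with these reads taken out of the total C exceeded H by 13.6 points and F exceeded H by 17.2 (adjusted p = 0.260 and 0.162 by exact permutation). On the C nucleus alone, with 3 libraries in each group, C minus H was 38.9 points, F minus H 11.3 and C minus F 27.6. There CC is wild type, while CF and CH are MNX mice. Over all 6 libraries of each type, C and F differed by 0.03 points, while CC minus FF was -9.25 points. Adjustment was over the 15 tests of 5 measures between 3 pairs of types, of which 0 passed 0.05, and the smallest p this design can give is 0.00216. The measures use the same reads and are not independent.

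The share reads through the table total, which holds the CCA-ended reads. Ratios among the ends do not. End 19 as a percentage of the reads at ends 19 to 31 varied little within some groups and widely in others. It was 50.8%, 52.8% and 51.4% in CC, although the share of these fragments in the table ran from 52.5% to 83.7% in the same libraries, and 62.3%, 64.4% and 61.2% in FF. It was 9.76%, 33.1% and 62.6% in HC and 47.8%, 50.9% and 22.9% in CF. In HH it was 11.6%, 54.3% and 32.4%, and in CH 35.3%, 45.7% and 28.8%. For the shallowest library, CF replicate 3, the 95% Wilson interval ran from 12.1% to 39.02%. The SD within a group was 1.07 points in CC and 1.62 in FF, and 8.50 to 26.5 in the other 4 groups.

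Between types, end 19 made up 43.4% ± 19.1 of these ends with mtDNA C, 51.6% ± 15.6 with F and 34.7% ± 14.7 with H (mean ± SD of 6 libraries). The difference was 8.72 points between C and H (p = 0.392 and adjusted p = 0.588 by exact permutation) and 16.9 points between F and H (p = 0.0866 and adjusted p = 0.260 by exact permutation). C minus F was -8.19 points, within the spread (p = 0.463 and adjusted p = 0.632 by exact permutation). Without HC replicate 1, C minus H was 15.5 points and C minus F -1.46, and without HH replicate 1, C minus H was 4.10.

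The pair of leading ends was then set against each other. In CC, 1.72, 1.75 and 1.68 reads ended at end 19 for each read at end 28, and in FF 2.52, 3.05 and 2.99. All FF libraries exceeded all CC libraries. This pair was picked after the values were seen, among 30 pairs of groups and measures, and with 3 libraries against 3 an exact permutation test cannot go below p = 0.1, which it gave. In HC the ratio was 0.593, 0.676 and 2.42, and in CF it was 2.22, 1.66 and 1.33. In HH it was 0.815, 2.10 and 2, and in CH it was 1.06, 1.17 and 0.845. Ratios below 1 occurred in HC replicates 1 and 2, HH replicate 1 and CH replicate 3, which are the libraries led by end 26 or end 28.

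On the log2 scale, with 0.5 reads added to each count, the ratio of end 19 to end 28 was 0.39 ± 0.83 with mtDNA C, 1.13 ± 0.49 with F and 0.30 ± 0.60 with H (mean ± SD of 6 libraries). F exceeded H by 0.83, with 6 of 6 F libraries above the mean of H, and did not pass after adjustment (p = 0.0325 and adjusted p = 0.130 by exact permutation). When labels were permuted within wild type and within MNX mice, the adjusted p was 0.0375 by exact permutation test. C and H differed by 0.08 (p = 0.842 and adjusted p = 0.902 by exact permutation), and C minus F was -0.75 (p = 0.106 and adjusted p = 0.265 by exact permutation). On the C nucleus alone, the CF mean of 0.76 ± 0.38 lay close to the CC mean of 0.78 ± 0.03 (SD, n = 3). Both lay above the CH mean of 0.02 ± 0.24, with no overlap between libraries (exact permutation test, p = 0.1 each, the smallest it can give). The lowest CF library, replicate 3, rested on 8 reads at end 19 and 6 at end 28. The highest CH library, replicate 2, rested on 21 and 18. CC is wild type, while CF and CH are MNX mice.

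End 26, at the start of the T stem, gave a wider span of ratios. In FF 14.1, 19.1 and 16.7 reads ended at end 19 for each read at end 26, and in CF 9.04, 13.5 and 8. In CC it was 9.79, 11.7 and 6.40, and in HC 0.516, 6.71 and 17.1. In HH it was 0.611, 7.53 and 2.45, and in CH 3.6, 5.25 and 4.57. Every F library lay above every H library. The lowest F library, CF replicate 3, rested on 8 reads at end 19 and 1 at end 26.

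As a log2 ratio, end 19 to end 26 was 2.57 ± 1.80 with mtDNA C, 3.59 ± 0.65 with F and 1.61 ± 1.26 with H (mean ± SD of 6 libraries). F exceeded H by 1.97, with 6 of 6 F libraries above the mean of H, which had the smallest p of the 15 tests and did not pass after adjustment (p = 0.00433 and adjusted p = 0.0649 by exact permutation). With labels permuted within wild type and within MNX mice the adjusted p was 0.0375 by exact permutation test. With the pseudocount, the lowest F library, at 2.50, lay below the highest H library, at 2.91, and the groups overlapped. C exceeded H by 0.95 (p = 0.320 and adjusted p = 0.534 by exact permutation) and lay below F, at -1.02 (p = 0.210 and adjusted p = 0.450 by exact permutation). Without HC replicate 1, C minus H was 1.66 and C minus F -0.32 (adjusted p = 0.0758 and 0.552 by exact permutation), and without HH replicate 1, C minus H was 0.49.

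Of the listed reads that began at nt 1, most stopped at or before the site. The table holds reads of up to 69 nt, so full-length mt-TR and reads that stop 1 nt before its mature end are not among them, and the longest reads from nt 1 that could be listed end at a different distance from the mature end in each type. Within these limits, the selected fragments made up 92.3% ± 7.70 of nt 1 reads with mtDNA C, 90.1% ± 7.94 with F and 86.6% ± 10.5 with H (mean ± SD of 6 libraries), and ranged from 70.6% in HH replicate 1 to 97.9% in CH replicate 2. The 3 differences between types, of 5.71, 3.54 and 2.16 points for C minus H, F minus H and C minus F, lay within the spread (exact permutation test, adjusted p = 0.515, 0.660 and 0.662). Without HH replicate 1, C minus H was 2.51 points and F minus H 0.35, and without HC replicate 1, C minus H was 8.76 and C minus F 5.22.

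Grouped by the part of the tRNA in which they end, T loop ends made up 45.6% ± 17.04 of ends 19 to 31 with mtDNA C, 56.2% ± 10.98 with F and 39.4% ± 11.5 with H (mean ± SD of 6 libraries). Variable loop ends made up 37.1% ± 9.21, 30.1% ± 5.98 and 37.8% ± 7.40. T stem ends made up 14.02% ± 8.68, 9.996% ± 1.07 and 17.7% ± 7.68, and end 31 of the anticodon arm made up 3.27% ± 3.58, 3.78% ± 5.22 and 5.12% ± 3.76. The ranges of the 3 types overlapped in each of these parts.

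Wild-type and MNX mice of one mtDNA type differ in the nuclear genome, in the number of reads and in the source of the animals. The paper states that MNX mice were bred in-house and that wild types came from vendors. These differences cannot be told apart. With labels permuted within types, wild type exceeded MNX in the log2 ratio of end 19 to end 28 by 0.70, with 8 of 9 wild-type libraries above the MNX mean of their type (p = 0.02 and adjusted p = 0.1 over 5 measures by exact permutation). The difference had the same sign in the 3 types, at 0.79 for C, 0.75 for F and 0.57 for H. It passed in 3 of 20 alternative settings and kept its sign without passing in the other 17. Those 3 include the settings without HC replicate 3 (0.92, exact permutation test, adjusted p = 0.010) and without HH replicate 1 (0.85, exact permutation test, adjusted p = 0.0275). The third left out both HC replicate 1 and HH replicate 1 (0.73, exact permutation test, adjusted p = 0.0475). Among the 17, the ratio difference was 0.62 without HH replicate 2 (exact permutation test, adjusted p = 0.21). With only libraries of at least 1000 reads kept, it was 0.61. The share of the selected fragments was 17.2 points higher in wild type (p = 0.075 and adjusted p = 0.188 by exact permutation) and the site-ended percentage 11.6 points higher (p = 0.143 and adjusted p = 0.238 by exact permutation). In libraries of at least 1000 reads these differences were 7.42 and 7.02 points (adjusted p = 0.746 each by exact permutation). The log2 ratio of end 19 to end 26 differed by 0.41 and the percentage stopping at or before the site by 0.01 (exact permutation test, adjusted p = 0.698 and 0.998).

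Within mtDNA F, all 3 FF libraries lay above all 3 CF libraries in the share, at 75.6% ± 5.24 against 38.8% ± 25.2, and in the site-ended percentage, at 62.7% ± 1.62 against 40.5% ± 15.4 (SD, n = 3). They also did so in the log2 ratio to end 28, at 1.51 ± 0.15 against 0.76 ± 0.38, and in that to end 26, at 4.04 ± 0.22 against 3.13 ± 0.62. An exact permutation test gave p = 0.1 for each of the 4, the smallest it can give. HC and CC overlapped in all 5 measures, and so did HH and CH. In the complete set of C and H combinations, the interaction of nucleus and mtDNA gave p values of 0.105 to 0.855 over the 5 measures (exact permutation test, 400 arrangements, adjusted p = 0.525 to 0.855).

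Deeper libraries had more of these fragments and more of them at the site. Over the 18 libraries, Pearson's r with log10 table reads was 0.67 for the share, 0.57 for the site-ended percentage, 0.56 for the log2 ratio to end 28, 0.42 for that to end 26 and 0.29 for the percentage that stopped. The libraries fall into wild-type and MNX sets of different depth. With the mean of each group taken out of both values, r was 0.57, 0.54, 0.43, 0.52 and 0.43 in the same order. The total contains the fragments, and all these values are descriptions without a test. In libraries of at least 1000 reads, C minus H was 18.3 points for the site-ended percentage, 1.85 for the log2 ratio to end 26 and 13.2 points for the percentage that stopped, and F minus H was 25.6 points, 2.38 and 10.9 points (adjusted p from 0.0595 to 0.155 by exact permutation). The limit of 1000 reads removed HC replicate 1, CF replicate 3 and CH replicates 1 and 2, all of them MNX libraries. It thus also changed the balance of wild-type and MNX libraries within each type. The part of depth in the differences above was not tested further.

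Reads that began at nt 2, 3 or 4 were not used in the selection, and 38 sequences of this kind with 3408 reads also ended at or before the site. In the 13 libraries with at least 10 such reads at ends 19 and 28, the log2 ratio of end 19 to end 28 was 0.82 ± 0.81 for these starts and 0.87 ± 0.64 for nt 1 (SD, n = 13). The difference was -0.04 ± 0.49, above 0 in 5 of 13 libraries (two-sided sign-flip permutation test, p = 0.752). CC replicate 1 stood lowest, with 274 reads at end 19 and 367 at end 28 among these starts against 4084 and 2368 for nt 1. Over ends 19 to 22 alone, end 19 took 92.1% of reads that began at nt 1 (95% Wilson interval 91.8 to 92.3), 92.3% of those from nt 2 (90.6 to 93.8), 90.1% from nt 3 (85.9 to 93.1) and 84.4% from nt 4 (81.2 to 87.1). Starts at nt 5 to 10 gave 85.0% to 92.4%. These percentages pool all libraries and weigh the deep ones most. In single libraries, end 19 took 47.3% of nt 1 reads at ends 19 to 22 in HH replicate 1, 55.2% in HC replicate 1 and 61.5% in CF replicate 3, which held 93, 29 and 13 such reads, and 76.5% to 100% in the other 15.

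Each end was also tested by itself, in an edgeR quasi-likelihood fit over all fragments that could be listed in the 3 types. The 13 common ends were among the 67 fragments that passed the filter on low counts, and ends 32 and 33 were not tested. Between C and H, 0 of the 13 were called at an adjusted p under 0.05, where 44.8% of all 67 fragments were called, 7.46% as higher in C, and 2 of the 13 had an unadjusted p under 0.05. Between F and H, 1 of the 13 was called, as higher in F, where 41.8% of all fragments were called, 4.48% as higher in F. Without HC replicate 1, edgeR called 3 of the 13 for C minus H, ends 19, 22 and 28, where 55.8% of 77 fragments were called. In that fit it called 2 of the 13 for F minus H, where 38 of all 77 fragments were called, although HC is not part of that comparison. It also called 3 for C minus H and 3 for F minus H without HH replicate 2, where 41 of all 73 fragments were called in each comparison. The median log2 fold change of the 13 was 0.24 for C minus H and 0.21 for F minus H, and that of all 67 fragments was -0.65 and -0.76.

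The called member was end 22. It made up 2.20%, 2.49% and 2.58% of table reads in FF, 0.441%, 2.16% and 0% in CF, 0.260%, 0.804% and 0.503% in HH, and 0.524%, 0% and 0.863% in CH. CF replicate 3 and CH replicate 2, where it was not seen, held 189 and 232 reads in all, which allows shares of up to 1.59% and 1.29%. Its log2 fold change for F minus H was 1.52 ± 0.63 (SE, edgeR adjusted p = 0.0487), and for C minus H it was 1.35 ± 0.63 (edgeR adjusted p = 0.0707). The call did not hold without any 1 of 9 of the 12 libraries compared, HH replicate 1 among them (1.36, edgeR adjusted p = 0.103), and without CF replicate 2 the log2 fold change was 0.71 (edgeR adjusted p = 0.461).

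The fold changes are on the scale of table reads, and the A and T ends are set apart here as a description. For C minus H, ends 19, 22, 25 and 28 lay between 0.86 and 1.41 and the other 9 ends between -0.68 and 0.64. For F minus H the ranges were 0.69 to 1.57 and -0.38 to 0.75, and for FF minus CF 0.58 to 1.42 and -1.92 to 0.78. For HC minus CC they ran the other way, at -1.51 to 0.18 and -0.71 to 1.92. For C minus F they were -0.17 to 0.50 and -0.93 to 0.70, and for HH minus CH -0.88 to 0.10 and -1.35 to 0.50. End 19 had 1.41 ± 0.71 and end 28 had 1.41 ± 0.65 for C minus H (SE, edgeR adjusted p = 0.0934 and 0.0694), and they had 1.57 ± 0.71 and 0.91 ± 0.64 for F minus H (edgeR adjusted p = 0.0677 and 0.247). End 26 had 0.64 ± 0.54 and -0.05 ± 0.54 (edgeR adjusted p = 0.347 and 0.951).

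These levels depend on the scaling. For C minus H, TMM scaling called 7 of the 13 and DESeq2 called 12, all higher in C, where they called 55.2% and 59.7% of all fragments. For F minus H they called 5 and 12, all higher in F, where they called 50.7% and 44.8% of all fragments. The change of scaling moved all fragments, and the median of the 67 on the log2 scale went from -0.65 to 0.40 under TMM and 1.499 under DESeq2 for C minus H, and from -0.76 to 0.04 and 1.03 for F minus H. All 67 fragments split into 5 higher and 25 lower calls for C minus H with the table total, 22 and 15 with TMM, and 35 and 5 with DESeq2. For F minus H the splits were 3 and 25, 18 and 16, and 28 and 2.

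Between C and F, 0 of the 13 ends and 1.49% of all fragments were called by edgeR, and 0 of the 13 were under 0.05 before adjustment. DESeq2 called 0 of the 13 and 2.99% of all fragments. Between FF and CF, 0 of the 13 and 34.3% of all fragments were called by edgeR, and 1 of the 13 was under 0.05 before adjustment. DESeq2 called 1 of the 13 and 8.96% of all fragments. By edgeR their median log2 fold change was 0.33, beside -1.23 for all 67. Between HC and CC and between HH and CH, 0 of the 13 and 0% of all fragments were called by edgeR, with 2 and 0 of the 13 at an unadjusted p under 0.05. DESeq2 called 1 and 0 of the 13, and 2.99% and 0% of all fragments.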

How the data were processed

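The authors deposited raw counts, one for each distinct sequence in each library. In their workflow they extracted unique molecular identifiers (UMI-tools 1.1.6), kept trimmed reads of 16 to 100 nt (cutadapt 5.0), mapped them with Bowtie 1.3.1 without gaps or mismatches to mature mt-TR of the library's own mtDNA type, collapsed duplicates and removed sequences that map elsewhere in mm10. The submitters' processing notes also name FastQC 0.12.1 and BWA 0.7.18. Reads in the table were 40 to 69 nt long and depth is the table total, so libraries cannot be compared for total mt-TR.

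All 18 columns were matched to a sample, with 0 left unmatched. Starts and ends were read from the dashes in each row and checked against the mature sequence of each type. The rule for named ends was end 19, 26 or 28, or a mean of at least 2% of ends 19 to 31. The members, measures and lists were chosen with earlier results of these data known. The fits for wild type alone, the C nucleus alone, and CH replicates 1 and 2 as 1 library, and the fit without HC replicate 1 and HH replicate 1, were chosen after the values were seen.

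For 5 measures per library, mtDNA types were set against each other by exact permutation, two-sided (924 arrangements), and wild type with MNX within types (8000 arrangements), with Benjamini-Hochberg adjustment. Log2 ratios used a pseudocount of 0.5 reads. Single fragments, aligned across types, were tested with edgeR 4.0.16 (R 4.3.3, limma 3.58.1), all 6 groups in one fit, with filterByExpr and the table total as library size. TMM scaling and DESeq2 1.42.0 were alternatives. Other steps used Python 3.11.15, numpy 2.4.6, pandas 2.3.3 and scipy 1.17.1. The edgeR step was tested on simulated data for C minus H. With 10 of 67 fragments changed by 4 on the log2 scale it recovered 100% of them and called 0.789% of the others. The highest log2 fold change of the 13 ends for C minus H was 1.41, so the check does not show how often changes of that size are recovered. All other fragments had the same simulated proportions in every group, so the check does not cover the dependence on scaling. Wilson intervals (95%) and the limit of 3 reads for a count of 0 cover counting error only.

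Replicates within a group were checked against sampling noise by chi-square over sequences. CH replicates 1 and 2, with 191 and 232 reads, differed by no more than that noise, while every other replicate pair differed by more. They were kept apart, since few reads limit that test, and were also counted as 1 library in an alternative.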

Additional observations from a re-analysis of the deposited data

Results flagged for a closer look

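Gaps between libraries were compared in the 5 measures over the 6 libraries of each mtDNA type, 15 sets in all, and chance marks about 1 set in 20. HC replicate 1 stood apart from the other mtDNA C libraries in 2 of them. Its log2 ratio of end 19 to end 26 was -0.93, against 2.68 to 4.10 in the other 5. Its percentage of nt 1 reads that stopped at or before the site was 77.0%, against 92.6% to 97.4%. The library held 733 reads, of which 16 ended at end 19, 31 at end 26 and 27 at end 28.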

How the results depend on the processing

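The 20 tests of the 5 measures were repeated under alternative settings, and 7 kept their direction and their side of the threshold under all of them. Labels permuted within wild type and MNX mice made 2 tests for F minus H pass (log2 ratios 0.83 to end 28 and 1.97 to end 26), and leaving out both libraries led by end 26 did so for wild type minus MNX in the ratio to end 28 (0.73). Some differences changed sign. The share for C minus F was -0.52 in libraries of at least 1000 reads, -10.4 for medians, -3.64 without CCA-ended reads in the total and -9.25 in wild type alone. It kept its sign on the C nucleus alone, at 27.6 points. On the C nucleus alone, C minus F went from -8.19 to 11.1 points for the site-ended percentage, from -0.75 to 0.0235 for the ratio to end 28 and from -1.02 to 0.0409 for that to end 26, and F minus H went from 3.54 to -6.49 points for the percentage that stopped. For wild type minus MNX, the ratio to end 26 was -0.22 and the percentage that stopped -2.12 in libraries of at least 1000 reads, and the latter -0.51 without both libraries led by end 26. When single libraries were left out, the share ranged from 26.1 to 38.4 points for C minus H and from -7.49 to 7.0 for C minus F, the ratio to end 28 from -0.10 to 0.31 for C minus H and from 0.58 to 0.92 for wild type minus MNX, the ratio to end 26 from -0.0767 to 0.76 for wild type minus MNX, and the percentage that stopped from -0.76 to 5.22 for C minus F and from -2.14 to 1.71 for wild type minus MNX. The cause was not tested.

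Of the 13 ends, edgeR called 0 for C minus H and 1 for F minus H. TMM scaling called 7 and 5, and DESeq2 12 and 12, with 1 for FF minus CF and 1 for HC minus CC. Rows as deposited gave 1 for C minus H, where 55 of all 92 fragments were called. No filter gave 0 for F minus H, where 19 of all 450 were called, with more fragments in the adjustment. Leaving out single libraries gave 0 to 3 for C minus H, 0 to 3 for F minus H and 0 to 1 for FF minus CF. In these fits 19 to 43, 20 to 41 and 1 to 28 of all fragments were called, out of 71 to 79 tested. End 26 for F minus H, -0.05, was 1.11 under TMM and 2.11 under DESeq2, and ranged from -0.30 to 0.0837 when single libraries were left out.

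Replicate numbers were not used to pair the libraries in the main tests. Deviations from the group means correlated above 0.1 in 20 of 45 same-numbered pairs (range -0.79 to 0.84). This count cannot exclude pairing by number within some of the groups. With the replicate number as a block, edgeR called 0 ends for C minus H and 1 for F minus H, where 30 and 28 of all 67 fragments were called. The called end was end 19 (1.74, edgeR adjusted p = 0.0342) and not end 22 (1.46, edgeR adjusted p = 0.0579). Of the libraries, 4 held fewer than 1000 reads, and in CF replicate 3, CH replicate 1 and CH replicate 2 single ends rested on a few reads.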
